A study of Mus musculus with 14 samples.

Results

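Potassium channel genes were taken as the protein-coding genes of the deposited table whose symbol consists of Kcn, further letters and a closing number. The rule found 92 of 53700 genes. By symbol, 30 encode voltage-gated pore subunits, 15 encode inward rectifiers, 14 encode tandem-pore (K2P) channels and 8 encode pores opened by calcium or sodium. A further 10 encode electrically silent subunits and 15 encode auxiliary subunits.

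The series measured poly-A RNA in 14 libraries of neural stem and progenitor cells (NSPCs) from adult C57BL/6 mice, and its design text names a comparison of quiescent with active cells and one of Yme1l knockout with wild type. Quiescent cells had received BMP4 (4 libraries), and proliferating cells had received FGF and EGF (4 libraries). Yme1l KO cells had received a Cre-GFP adeno-associated virus and were kept in FGF and EGF (3 libraries), and their GFP control cells had received a GFP adeno-associated virus in the same medium (3 libraries). The labels call the source mouse wild type in all 4 groups, give no floxed allele, and do not say whether replicates are separate cultures or animals. The p-values below rest on the spread between libraries alone, and that spread may be technical.

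Potassium channels let potassium ions leave or enter the cell along their gradient and so set the resting membrane potential and end action potentials. Voltage-gated channels open on depolarisation, inward rectifiers and K2P channels carry current near rest, and auxiliary subunits change the gating or the number of pores at the membrane. In neural stem cells and astrocytes, which share a negative resting potential, Kir4.1 is the best known of them, while most voltage-gated members are known from neurons.

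The libraries held 6475099 to 8797750 estimated counts in quiescent cells, 8331999 to 8992709 in proliferating cells, 9053124 to 9490756 in Yme1l KO cells and 9226080 to 10320736 in GFP control cells. Of 8 stem and progenitor markers, all had a group mean of at least 1 TPM (transcript abundance scaled for gene length and summing to the same total in every library) except Hes5 in Yme1l KO cells. Markers of other cell types were mixed. Per group, 3 to 4 of 8 neuron and 2 to 4 of 8 oligodendrocyte lineage markers had a mean of at least 1 TPM. So did 1 to 2 of 6 microglia, 0 to 2 of 7 vessel and 2 of 4 ependyma markers. Those under 1 TPM throughout included Stmn2, Dcx and Rbfox3 (neurons), Mog and Sox10 (oligodendrocytes), Cx3cr1 and Aif1 (microglia), and Cldn5 and Pdgfrb (vessels). The 8 neuron markers summed to 542.6 to 569 TPM in Yme1l KO and 526 to 582 TPM in GFP control libraries, nearly all of it Map2, and to 38.8 to 63.5 TPM in quiescent and 44.2 to 52.2 TPM in proliferating libraries. The 8 oligodendrocyte lineage markers, led by Cnp and Cspg4, summed to 98.3 to 199 TPM over all libraries, the 6 microglia markers to 2.46 to 7.95 TPM and the 7 vessel markers to 0.177 to 10.7 TPM. The 4 ependyma markers summed to 44.5 to 51.7 TPM in quiescent and 68.3 to 78.7 TPM in proliferating libraries. In Yme1l KO and GFP control libraries they summed to 16.1 to 21.4 and 11.0 to 16.7 TPM. The part of all these markers in the channel results was not tested. The targeted gene Yme1l1, a mitochondrial inner membrane protease, had 202 to 242 counts in Yme1l KO libraries and 1160 to 1330 in GFP control libraries (log2 fold change -2.36 ± 0.07 SE, adjusted p = 5.89e-11 by edgeR's quasi-likelihood test). It had 24 to 95 counts in quiescent and 19 to 44 in proliferating libraries, which the labels give no deletion. Each pair of groups was quantified in its own table, and the tables stand apart beyond this gene. Of 13785 genes with at least 1 TPM in either group grown without BMP4, 18.5% differed at least 4-fold between GFP control and proliferating cells on the log2(TPM + 1) scale. The median GC content of the transcripts was 43.9% for those higher in GFP control cells and 55.2% for those higher in proliferating cells, and its part in the gap was not tested. Levels were therefore tested only within a table.

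Detection separated the family first. No count was found in any of the 14 libraries for 9 members (Kcne1, Kcne3, Kcnj1, Kcnj3, Kcnk18, Kcnmb3, Kcns2, Kcns3 and Kcnv2), and 29 others had 1 to 50 counts over all libraries together. A mean of at least 1 TPM was reached by 36 members in quiescent, 37 in proliferating, 37 in Yme1l KO and 33 in GFP control cells. The filter on low counts left 43 members to test between quiescent and proliferating cells and 40 between Yme1l KO and GFP control cells. Of all 92 members, 50 were tested in at least 1 comparison and 42 in neither.

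A few genes carried most of the channel transcript in each group. In quiescent cells the level of Kcnmb4, the brain-enriched beta subunit of the large-conductance calcium-activated (BK) channel, was 418 ± 8.13 TPM (SD, n = 4), and the next was Kcnh2, the ERG channel, at 73.6 ± 7.60 TPM. Kcnk1, a K2P channel, stood lower at 34.8 ± 1.52 TPM. In proliferating cells the order was Kcnc1 (182 ± 2.44 TPM), Kcnmb4 (140 ± 4.94 TPM), Kcnip3 (99.9 ± 3.49 TPM), Kcnk1 (75.2 ± 5.50 TPM) and Kcnab2 (49.5 ± 3.29 TPM), each apart from the next by more than the SDs.

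The virus-treated groups had another order. In Yme1l KO cells Kcnc1 stood at 257 ± 30.5 TPM and Kcnd3, an A-type pore of the Kv4 subfamily, at 212 ± 9.92 TPM (SD, n = 3). In GFP control cells Kcnc1 was at 175 ± 5.84 TPM and Kcnd3 at 139 ± 1.45 TPM. Kcnj16, Kcnip3 and Kcnmb4 followed in both groups, at 36.2, 31.0 and 23.0 TPM in Yme1l KO cells and 46.0, 41.3 and 37.7 TPM in GFP control cells. Kcnd3 had 29.4 ± 6.14 TPM in quiescent and 11.96 ± 2.63 TPM in proliferating cells, so that it ranked 2 of 92 members in Yme1l KO and GFP control cells, 5 in quiescent and 10 in proliferating cells. Kcnd3, Kcnq5 and Kcnv1 were at least 4-fold higher in GFP control than in proliferating cells, and Kcnip1 and Kcnk1 were among those at least 4-fold lower, out of 43 members with 1 TPM in either group. This gap was not tested.

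**Figure D1:**
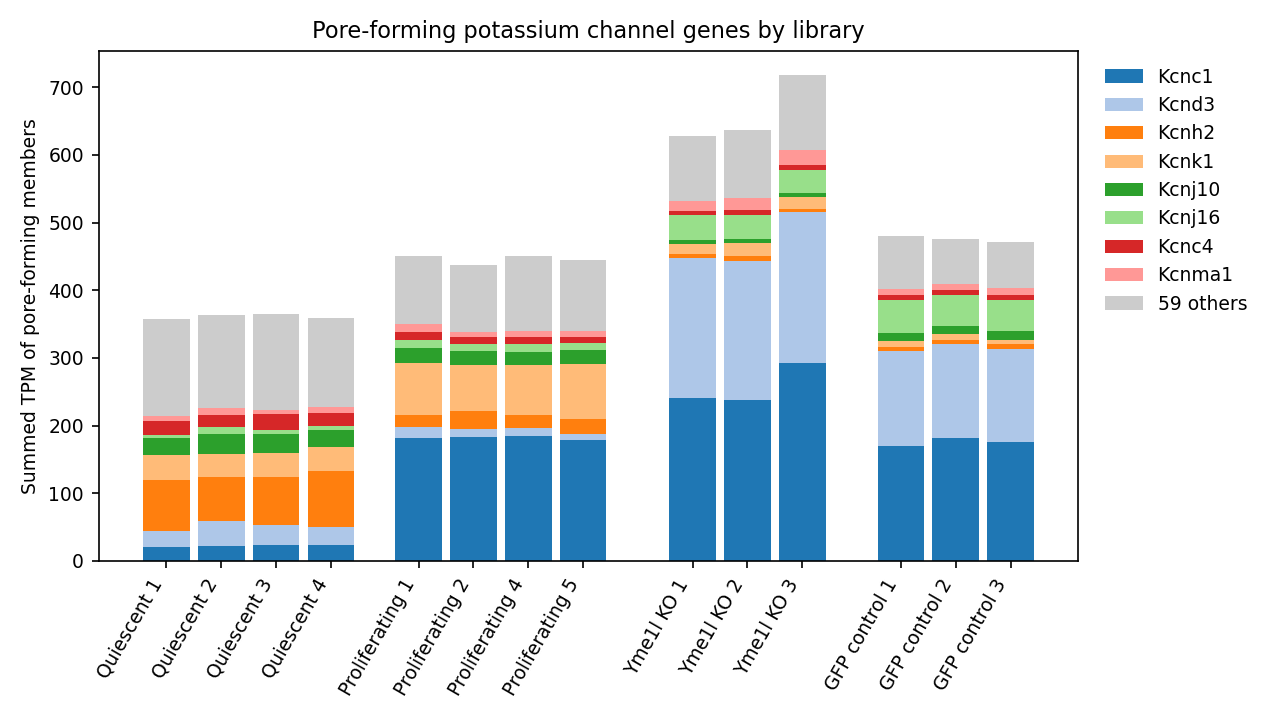
Summed TPM of the 67 pore-forming members (vertical axis) in each of the 14 libraries, with 8 members in colour and the 59 others in grey. Kcnc1 takes a thin slice in the 4 quiescent bars and the largest slice in the 4 proliferating bars, and Kcnd3 adds a second large slice in the Yme1l KO and GFP control bars.

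Kcnc1 encodes Kv3.1, a fast delayed rectifier known from fast-spiking neurons. It made up 6.23% ± 0.255 of the summed pore TPM in quiescent and 40.9% ± 0.732 in proliferating cells (SD, n = 4 each), and 38.8% ± 1.70 in Yme1l KO and 36.9% ± 1.39 in GFP control cells (SD, n = 3 each). The 67 pore-forming members together summed to 361 ± 3.65 TPM in quiescent and 446 ± 6.22 TPM in proliferating cells, a gap that Kcnc1 carried: without it the sum was 339 ± 3.14 TPM in quiescent and 263 ± 6.30 TPM in proliferating cells. In Yme1l KO cells the pores summed to 661 ± 49.7 TPM, against 476 ± 4.43 TPM in GFP control cells. The 15 auxiliary members summed to 456 ± 6.78 TPM in quiescent and 308 ± 7.12 TPM in proliferating cells, and to 72.0 ± 11.2 TPM in Yme1l KO and 114 ± 3.48 TPM in GFP control cells. Kcnmb4 set the direction of the first pair: without it the sum was 37.2 ± 1.66 TPM in quiescent and 168 ± 4.21 TPM in proliferating cells. Without it the second pair was 49.0 ± 5.01 TPM in Yme1l KO and 76.7 ± 4.30 TPM in GFP control cells.

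Between quiescent and proliferating cells the family turned over rather than moving one way. Of the 43 members tested, 17 were higher and 13 lower in quiescent cells at an adjusted p under 0.05, which is 69.8% beside 65.4% of all 12245 genes tested, a share near the background. By direction this was 39.5% higher and 30.2% lower, beside 29.9% and 35.5% of all genes. The changes were large: 12 higher and 11 lower calls were at least 2-fold, or 53.5% beside 20.7% of all genes, and the median absolute log2 fold change was 1.26 beside 0.48. The filter kept 10 of the 43 through 1 group only, and those had to differ: Kcnc2, Kcnj6, Kcnj9, Kcnq3 and Kcnq5 through the quiescent and Kcna5, Kcnab3, Kcnf1, Kcnj11 and Kcnv1 through the proliferating libraries. Among the 31 members above the count minimum in every library, 14 were called at 2-fold or more, or 45.2% beside 17.3% of all genes so placed. The median log2 fold change was -0.01 for the members and -0.01 for all genes. In bulk libraries, fewer cells of a type and less RNA per cell cannot be told apart.

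**Figure D2:**
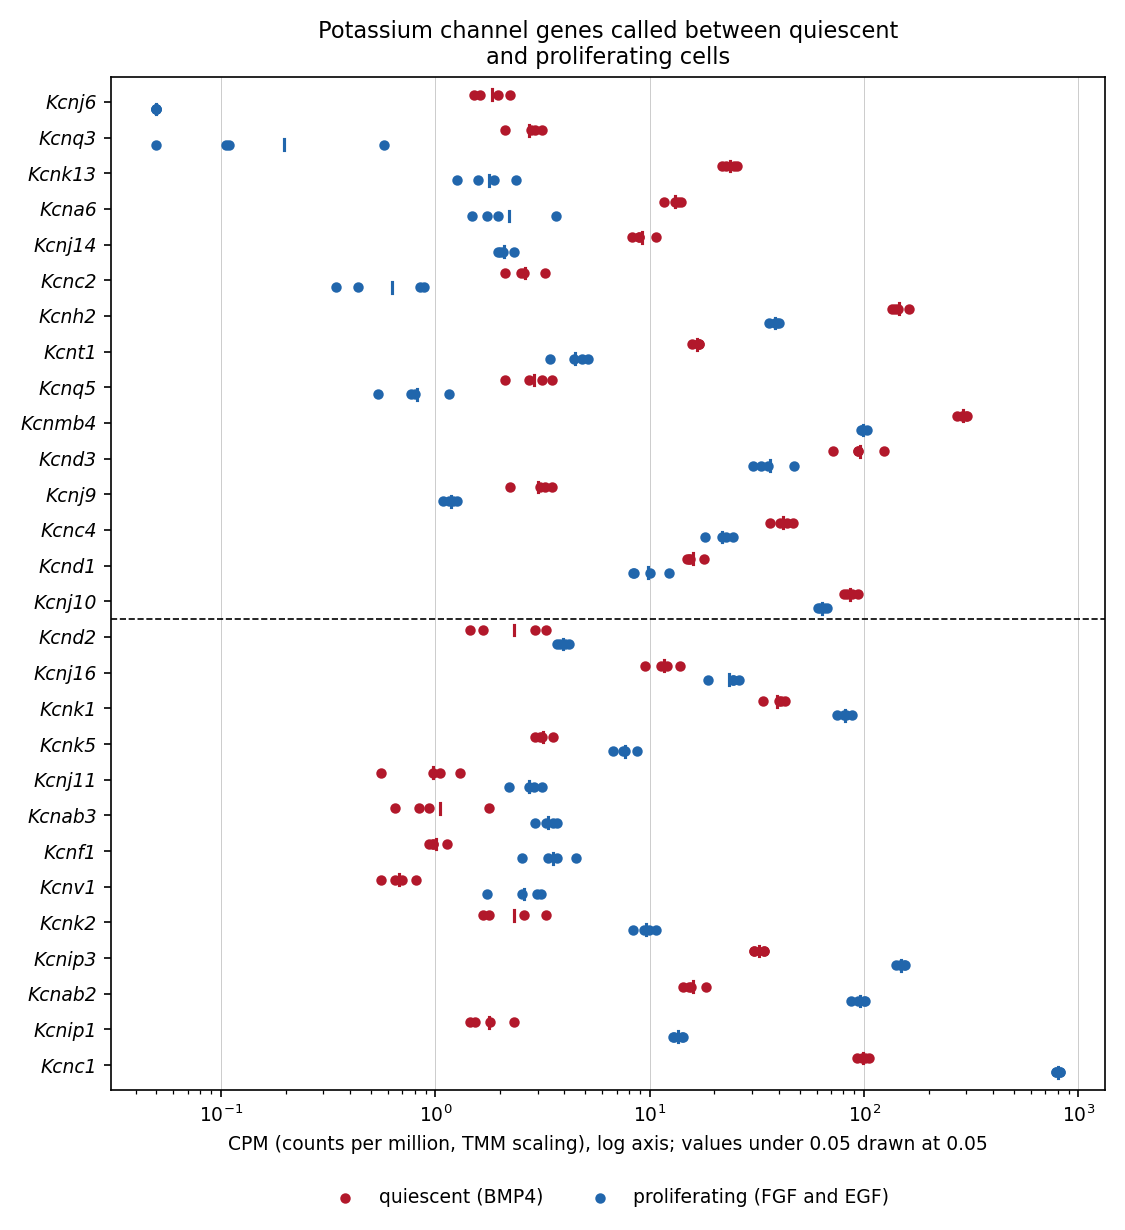
CPM (counts relative to library size, log axis) in each library for 28 of the 30 members called between quiescent (upper row of each gene) and proliferating cells (lower row), ordered by fold change, with a vertical tick at each mean and values under 0.05 CPM drawn at 0.05. Kcnj6 to Kcnj10 above the dashed line are higher in the quiescent libraries, and Kcnd2 to Kcnc1 below it are lower. In each of the 28 the points of the groups do not overlap, but only called members are drawn, so the separation adds no support to the calls.

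Of 16 tested voltage-gated pores 10 were higher and 2 lower in quiescent cells, beside 29.9% and 35.5% of all genes, with a median log2 fold change of 0.60. Among the 11 above the count minimum in every library, 7 were higher and 2 lower, beside 30.2% and 36.9% of all genes so placed. The most abundant of them in proliferating cells ran the other way. Kcnc1 had 97.5, 93.1, 106 and 101 CPM (counts relative to the TMM-scaled library total) in quiescent libraries, against 789, 816, 816 and 785 CPM in proliferating libraries. Every quiescent value lay far under every proliferating one, for a log2 fold change of -3.01 ± 0.05 (SE) and an adjusted p of 1.01e-16. Other members of its Kv3 subfamily went the other way. Kcnc4 (Kv3.4, an A-type pore) rose by 0.93 ± 0.10 on the log2 scale and Kcnc2 (Kv3.2) by 2.02 ± 0.36, the second from low levels and admitted to the test through the quiescent libraries only. Kcnc2 had 2.59, 2.10, 3.25 and 2.51 CPM in quiescent libraries, against 0.844, 0.883, 0.434 and 0.344 CPM in proliferating libraries.

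Kcnh2, whose ERG current drives repolarisation in the heart, had 162, 135, 140 and 145 CPM in quiescent libraries, against 38.5, 40.0, 39.2 and 35.9 CPM in proliferating libraries. The groups were far apart, with a log2 fold change of 1.92 ± 0.07 (adjusted p = 5.8e-13). Kcnd3 had 71.8, 124, 93.9 and 94.1 CPM in quiescent libraries, against 47.1, 33.1, 35.6 and 30.4 CPM in proliferating libraries. Quiescent replicate 2 was the highest, the groups did not overlap, and the log2 fold change reached 1.39 ± 0.20 (adjusted p = 0.000489), between 1.31 and 1.56 with any 1 library left out. Kcnd1, a second Kv4 pore, rose by 0.70 ± 0.14 on the log2 scale. Kcnd2, the third, was lower with 1.45 to 3.27 CPM in quiescent and 3.67 to 4.20 CPM in proliferating libraries (log2 fold change -0.73 ± 0.28, adjusted p = 0.0321), a call that was lost without quiescent replicate 1 (adjusted p = 0.119) or 4 (0.123) and without proliferating replicate 2 (0.0679) or 4 (0.062).

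The KQT-type pores Kcnq3 and Kcnq5, which contribute to the M-current of neurons, had few reads and entered the test through the quiescent libraries only, so their direction was fixed by the filter. Kcnq3 had 2.91, 3.15, 2.12 and 2.79 CPM in quiescent libraries, against 0.105, 0, 0.108 and 0.574 CPM in proliferating libraries. The log2 fold change of 3.74 ± 0.53 (adjusted p = 1.3e-05) rests on few reads and was 4.98 without proliferating replicate 5, the highest of its group. Kcnq5 had 2.12 to 3.49 CPM in quiescent and 0.542 to 1.16 CPM in proliferating libraries (log2 fold change 1.80 ± 0.33, adjusted p = 0.000162). Kcna6 (Kv1.6) had 13.1, 11.7, 13.5 and 13.95 CPM in quiescent libraries, against 1.48, 3.64, 1.74 and 1.95 CPM in proliferating libraries, a log2 fold change of 2.56 ± 0.24 (adjusted p = 1.15e-07). Kcna2 and Kcna5, further Kv1 pores, did not pass the test, with log2 fold changes of -0.01 ± 0.35 (adjusted p = 0.977) and -0.61 ± 0.30 (adjusted p = 0.088).

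Of the silent subunits, which form no channel alone and modify Kv2 pores, 2 of 3 tested fell, beside 35.5% of all genes. Kcnf1 had 1.13, 0.934, 0.976 and 0.977 CPM in quiescent libraries, against 3.69, 4.53, 3.36 and 2.53 CPM in proliferating libraries (log2 fold change -1.80 ± 0.30, adjusted p = 7.01e-05). Kcnv1 had 0.647, 0.701, 0.814 and 0.558 CPM in quiescent libraries, against 2.53, 2.98, 1.74 and 3.10 CPM in proliferating libraries (-1.91 ± 0.34, adjusted p = 0.000146). Both passed the filter through the proliferating libraries only. Kcng1, the most abundant of the group, had a log2 fold change of -0.17 ± 0.11 (adjusted p = 0.185).

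Among inward rectifiers 4 of 8 tested were higher and 2 lower in quiescent cells, beside 29.9% and 35.5% of all genes. Of the 5 above the count minimum in every library, 2 were higher and 1 lower, beside 30.2% and 36.9% of all genes so placed. Kcnj10 encodes Kir4.1, the astrocyte channel that clears extracellular potassium, and Kcnj16 encodes Kir5.1, which assembles with it. Kcnj10 had 83.1, 93.3, 87.9 and 80.8 CPM in quiescent libraries, against 66.9, 62.0, 60.8 and 65.1 CPM in proliferating libraries, and rose by 0.44 ± 0.06 on the log2 scale (adjusted p = 1.23e-05). Kcnj16 had 9.54, 13.9, 11.2 and 12.001 CPM in quiescent libraries, against 26.04, 24.4, 18.8 and 24.3 CPM in proliferating libraries (log2 fold change -0.99 ± 0.14, adjusted p = 9.27e-06). The partners thus moved in opposite directions, with no overlap in either. Astrocyte markers moved with quiescence: 6 of 8 were higher, Aldh1l1 was lower and Gjb6 was not tested, and their summed level was 4880 to 5101 TPM in quiescent and 3104 to 3266 TPM in proliferating libraries. Their part in the Kcnj10 result was not tested.

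The G protein-gated pores Kcnj6 and Kcnj9 also entered the test through the quiescent libraries only. Kcnj6 had 51 counts over the 4 quiescent libraries and 0 over the 4 proliferating libraries, which makes it at least 22.1-fold higher when 3 counts are set over the proliferating group. Kcnj9 was detected in every library of both groups, with 2.22 to 3.49 CPM in quiescent and 1.08 to 1.26 CPM in proliferating libraries (log2 fold change 1.33 ± 0.28, adjusted p = 0.000697). Kcnj14, a strong inward rectifier of the Kir2 subfamily, had 10.7, 8.29, 8.95 and 8.93 CPM in quiescent libraries, against 2.003, 2.32, 2.06 and 1.95 CPM in proliferating libraries (2.13 ± 0.20, adjusted p = 1.08e-07). Kcnj11, the pore of the ATP-sensitive channel, had 0.970, 1.05, 1.302 and 0.558 CPM in quiescent libraries, against 2.74, 2.21, 3.15 and 2.87 CPM in proliferating libraries. It passed the filter through the proliferating libraries only, and its log2 fold change of -1.49 ± 0.32 (adjusted p = 0.000694) lost its call on counts scaled from TPM (adjusted p = 0.122) and by limma (0.0531).

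The K2P channels, which leak potassium at rest, changed in 4 of 5 tested members, beside 65.4% of all genes. Kcnk13 (THIK-1, known from microglia) had 24.7, 22.7, 25.5 and 21.8 CPM in quiescent libraries, against 1.58, 1.88, 2.39 and 1.26 CPM in proliferating libraries. This was the largest rise in a member with counts in every library (log2 fold change 3.72 ± 0.17, adjusted p = 2.33e-11). The 6 microglia markers summed to 4.84 to 7.84 TPM in quiescent and 2.46 to 4.35 TPM in proliferating libraries, with Cx3cr1 at 0 in both. Of these 6, Tmem119 was higher in quiescent cells, at a mean of 4.06 CPM against 0.105 CPM in proliferating cells (log2 fold change 5.01 ± 0.63, adjusted p = 4.99e-06), 1 was not called and 4 had too few counts to test. Their part in the Kcnk13 result was not tested. The other 3 called K2P members fell. Kcnk1 (TWIK-1) had 40.9, 33.9, 39.9 and 42.6 CPM in quiescent libraries, against 80.3, 74.7, 82.7 and 88.1 CPM in proliferating libraries (-1.06 ± 0.08, adjusted p = 6.47e-09). Kcnk2 (TREK-1, opened by stretch and lipids) had 1.78, 3.27, 2.60 and 1.67 CPM in quiescent libraries, against 10.6, 9.38, 9.87 and 8.38 CPM in proliferating libraries (-2.01 ± 0.23), and Kcnk5 (TASK-2, opened by alkaline pH) changed by -1.26 ± 0.19 on the log2 scale.

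Of 5 tested pores opened by calcium or sodium only Kcnt1, the sodium-activated Slack channel, was called, beside 65.4% of all genes. It had 17.0, 15.8, 16.8 and 17.0 CPM in quiescent libraries, against 4.85, 3.42, 4.45 and 5.16 CPM in proliferating libraries (log2 fold change 1.89 ± 0.15, adjusted p = 1.99e-08). The BK pore Kcnma1 and the small-conductance pores Kcnn1, Kcnn2 and Kcnn3 had log2 fold changes between -0.21 and 0.17, with adjusted p from 0.385 to 0.965.

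Auxiliary subunits fell in 4 of 6 tested members, beside 35.5% of all genes. Of the 4 above the count minimum in every library, 1 was higher and 3 lower, beside 30.2% and 36.9% of all genes so placed. Kcnmb4, which binds the BK pore and slows its activation, was the exception with 297, 272, 286 and 301 CPM in quiescent libraries, against 96.6, 97.8, 98.4 and 103 CPM in proliferating libraries (log2 fold change 1.55 ± 0.05, adjusted p = 1.76e-13). Kcnip1 and Kcnip3 encode calcium-binding KChIP proteins that bind Kv4 pores, and Kcnip3 is also known as the transcriptional repressor DREAM. Kcnip3 had 34.1, 30.6, 34.0 and 30.6 CPM in quiescent libraries, against 141, 155, 153 and 147 CPM in proliferating libraries (-2.21 ± 0.06, adjusted p = 5.14e-14). Kcnip1 had 1.45, 2.34, 1.79 and 1.53 CPM in quiescent libraries, against 14.1, 13.0, 14.3 and 12.9 CPM in proliferating libraries (-2.90 ± 0.19, adjusted p = 1.45e-09). Kcnd3 and Kcnd1 thus rose while these KChIP genes fell. The split did not cover every such gene. Kcnd2 was called lower as well (a call lost under some alternatives), and another tested KChIP gene was not called.

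The beta subunits of Kv1 pores fell as well. Kcnab2 had 18.3, 14.4, 15.3 and 15.6 CPM in quiescent libraries, against 101, 86.8, 100 and 93.2 CPM in proliferating libraries, with no overlap (-2.59 ± 0.08, adjusted p = 2.84e-13). Kcnab3, admitted through the proliferating libraries only, had 1.78, 0.934, 0.651 and 0.837 CPM in quiescent libraries, against 3.27, 3.53, 2.93 and 3.67 CPM in proliferating libraries (-1.67 ± 0.32, adjusted p = 0.000254).

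Promoter windows are shown for Kcnc1, the member with the highest level in proliferating cells, and for Kcnmb4 and Kcnh2, which led in quiescent cells. They were chosen because each gene changed its level between the groups. Each window (300 bases) lies around a RefSeq start in GRCm38.p6 and is read 5′ to 3′ on the gene's strand. A gene can have several starts, and which start served the counted transcripts was not tested. In quiescent cells 90.1% ± 5.86 (SD, n = 4) of the Kcnh2 counts went to Kcnh2-201 and 6.92% ± 4.38 to Kcnh2-202. The Kcnh2 window was not assigned to either form. Capitals mark matches on either strand to GGCGCC, a GC-rich element bound by the SMAD factors of BMP signalling, or to GGGCGGG, the GC box bound by SP1. Kcnc1 lies at chr7:46396218-46396517 on the plus strand, Kcnmb4 at chr10:116473474-116473773 on the minus strand and Kcnh2 at chr5:24329542-24329841 on the minus strand.
Kcnc1: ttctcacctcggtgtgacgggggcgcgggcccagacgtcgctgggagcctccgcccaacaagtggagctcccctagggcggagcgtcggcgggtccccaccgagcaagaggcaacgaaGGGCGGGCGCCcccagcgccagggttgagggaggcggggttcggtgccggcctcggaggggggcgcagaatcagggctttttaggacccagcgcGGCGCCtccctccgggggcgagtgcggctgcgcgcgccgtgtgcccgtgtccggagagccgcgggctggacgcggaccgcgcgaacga
Kcnmb4: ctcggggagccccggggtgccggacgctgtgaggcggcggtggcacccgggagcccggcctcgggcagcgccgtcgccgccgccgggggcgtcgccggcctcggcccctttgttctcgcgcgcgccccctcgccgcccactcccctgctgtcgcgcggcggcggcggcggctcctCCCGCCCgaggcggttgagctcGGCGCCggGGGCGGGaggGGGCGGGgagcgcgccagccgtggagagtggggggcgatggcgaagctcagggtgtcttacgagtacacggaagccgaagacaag
Kcnh2: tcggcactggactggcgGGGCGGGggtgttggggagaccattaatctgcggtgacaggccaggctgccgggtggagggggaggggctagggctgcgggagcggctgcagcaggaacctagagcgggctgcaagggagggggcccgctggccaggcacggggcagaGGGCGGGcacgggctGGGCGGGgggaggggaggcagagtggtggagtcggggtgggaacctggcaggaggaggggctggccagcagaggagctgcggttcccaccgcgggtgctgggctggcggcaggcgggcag

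The Kcnc1 window held 2 matches to GGCGCC and 1 to GGGCGGG, which overlap in 1 place. The Kcnmb4 window held 1 match to GGCGCC and 3 to GGGCGGG, and the Kcnh2 window held 0 and 3, so GGCGCC stood in a gene that fell and in one that rose. Over all 32851 promoter windows of the table, 11.9% held GGCGCC and 25.6% held GGGCGGG. Of the 92 windows that matched 67 members, 16 held GGCGCC (17.4%) and 28 held GGGCGGG (30.4%). The member windows were also richer in GC, with a median of 58.0% against 52.7% over all windows. The part of GC content in these shares was not tested. The EGR motif GCGTGGGCG stood in 0 member windows (0.612% of all) and TTCAGCACC, part of the element bound by the repressor REST, in 1 (0.371% of all). A match is a string of letters and was not tested for binding.

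In Yme1l KO cells the family moved by smaller steps. Of 40 members tested, 17 were higher and 11 lower than in GFP control cells, or 70% beside 51.6% of all 12625 genes tested, and the median log2 fold change was 0.35 for the members and 0.00 for all genes. By direction this was 42.5% higher and 27.5% lower, beside 25.4% and 26.2% of all genes. Only 4 of the higher and 2 of the lower calls were at least 2-fold, 15% beside 5.23% of all genes. Nearly all members here passed the filter in both groups (36 of 40), and of those 75% were called beside 53% of all genes so placed, and 16.7% beside 4.01% at 2-fold or more. Yme1l KO replicate 3 stood apart from replicates 1 and 2 on the first principal component, and without it 16 members were higher and 9 lower. On counts scaled from TPM, 9 were higher and 6 lower.

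**Figure D3:**
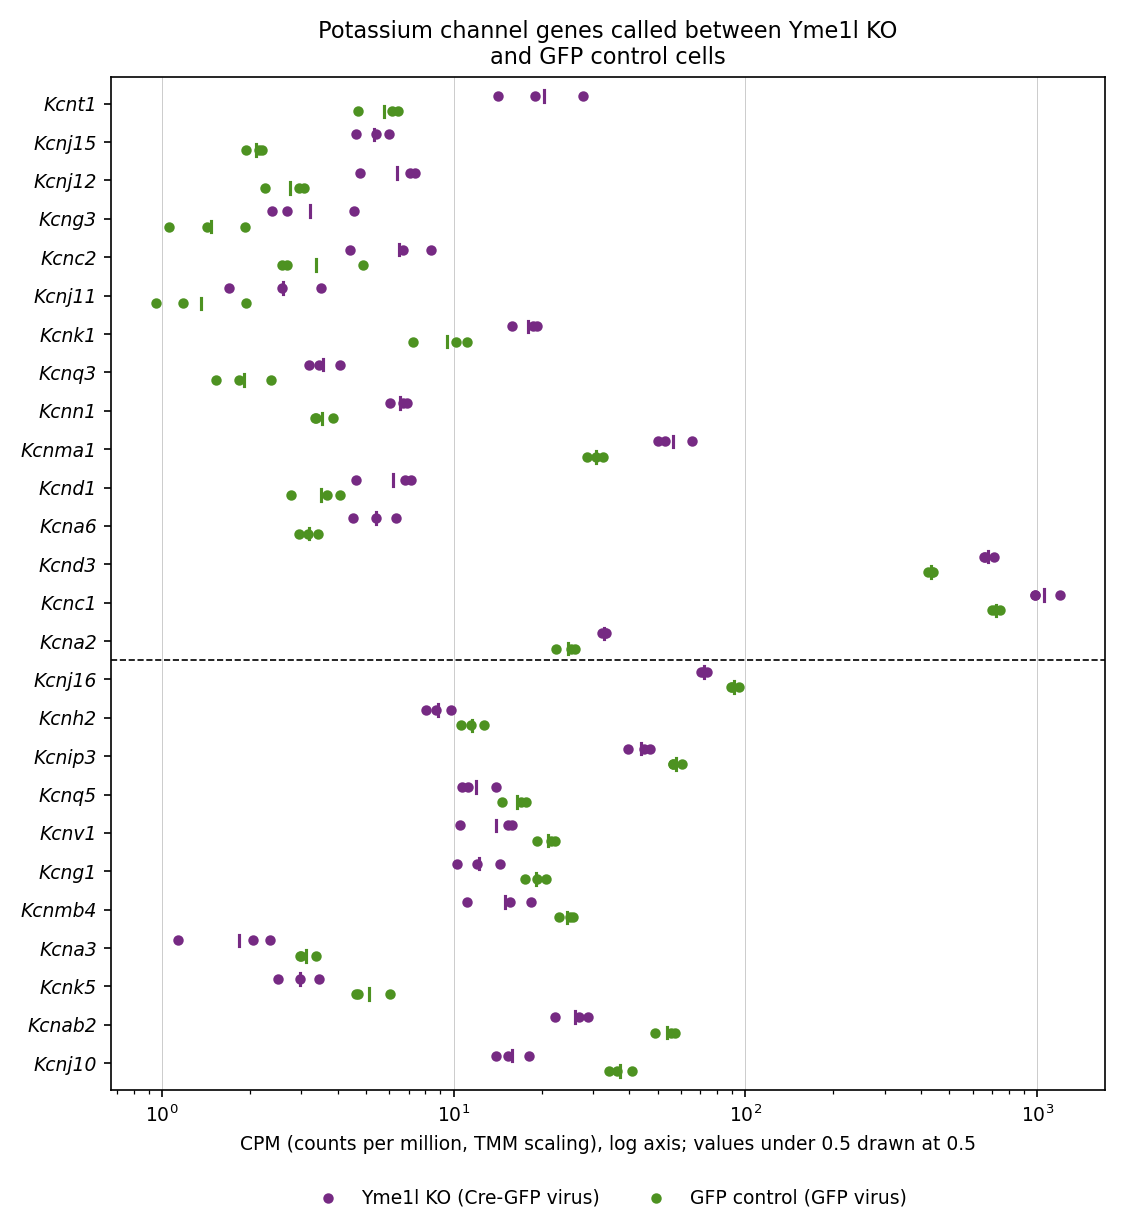
CPM (counts relative to library size, log axis) in each library for 26 of the 28 members called between Yme1l KO (upper row of each gene) and GFP control cells (lower row), ordered by fold change, with a vertical tick at each mean. Kcnt1 to Kcna2 above the dashed line are higher in Yme1l KO libraries and Kcnj16 to Kcnj10 below it are lower. Kcnc1 and Kcnd3 lie furthest right, from 424 to 1193 CPM.

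The 2 most abundant pores both rose. Kcnc1 had 986, 983 and 1193 CPM in Yme1l KO libraries, against 701, 744 and 717 CPM in GFP control libraries, with replicate 3 the highest and no overlap (log2 fold change 0.55 ± 0.07, adjusted p = 3.72e-05). Kcnd3 had 661, 656 and 712 CPM in Yme1l KO libraries, against 435, 439 and 424 CPM in GFP control libraries (0.65 ± 0.05, adjusted p = 6.15e-07). In all, 9 of 16 tested voltage-gated pores rose and 3 fell, beside 25.4% and 26.2% of all genes. Kcnq3 was called higher and Kcnq5 lower, but neither held under every alternative. Kcnq3 had 3.19, 3.44 and 4.07 CPM in Yme1l KO libraries, against 1.83, 2.36 and 1.53 CPM in GFP control libraries (0.90 ± 0.26, adjusted p = 0.0089), and its adjusted p was 0.0639 by DESeq2 and 0.165 by limma. Kcnq5 had 11.2, 13.98 and 10.6 CPM in Yme1l KO libraries, against 17.0, 14.7 and 17.7 CPM in GFP control libraries (-0.47 ± 0.13, adjusted p = 0.00791), and its adjusted p was 0.0728 by limma and 0.0919 on counts scaled from TPM.

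Other calls were lost as well. In 2 of the 28 calls, Kcnc2 and Kcnj11 (an inward rectifier), the groups overlapped. Kcnc2 had 6.69, 4.41 and 8.37 CPM in Yme1l KO libraries, against 4.89, 2.57 and 2.68 CPM in GFP control libraries (0.94 ± 0.29, adjusted p = 0.0151), and without GFP control replicate 2 or 3 the adjusted p was 0.0696 or 0.0771 (0.0777 by limma and 0.118 on counts scaled from TPM). Kcna3, a pore known from T cells and microglia, had 2.34, 2.04 and 1.13 CPM in Yme1l KO libraries, against 3.36, 3.001 and 2.97 CPM in GFP control libraries (-0.75 ± 0.28, adjusted p = 0.0387), and the call was lost without any 1 library other than Yme1l KO replicate 1, with an adjusted p from 0.0564 to 0.171, the highest without Yme1l KO replicate 3, and was 0.158 by DESeq2. Kcnh2 had 9.77, 8.71 and 8.03 CPM in Yme1l KO libraries, against 10.6, 12.6 and 11.5 CPM in GFP control libraries (-0.39 ± 0.14, adjusted p = 0.0287), and its adjusted p lay between 0.0636 and 0.111 without Yme1l KO replicate 2 or 3 or GFP control replicate 2 or 3, and was 0.131 by DESeq2 and 0.465 by limma.

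Among inward rectifiers 3 of 7 tested rose and 2 fell, beside 25.4% and 26.2% of all genes. Kcnj10 had 15.4, 18.2 and 13.9 CPM in Yme1l KO libraries, against 36.2, 34.1 and 40.9 CPM in GFP control libraries, all lower (log2 fold change -1.23 ± 0.11, adjusted p = 1.45e-06). Its partner Kcnj16 had 73.6, 71.6 and 70.2 CPM in Yme1l KO libraries, against 95.4, 89.2 and 90.1 CPM in GFP control libraries (-0.35 ± 0.06, adjusted p = 0.000136). Here both partners fell. The summed astrocyte markers were 1004 to 1060 TPM in Yme1l KO and 980 to 1004 TPM in GFP control libraries. Of the 8, 3 were higher, Aldoc was lower, 2 were not called and 2 were not tested. Their part in the Kcnj10 and Kcnj16 results was not tested. Kcnj15 (Kir4.2) had 5.42, 4.62 and 6.00 CPM in Yme1l KO libraries, against 1.93, 2.14 and 2.20 CPM in GFP control libraries (1.34 ± 0.22, adjusted p = 0.000152), but its log2 fold change was 0.69 by limma and its adjusted p 0.0565 on counts scaled from TPM. The limma run works on log2(TPM + 1), which shrinks fold changes at low levels. Kcnj15 had a mean of 2.69 TPM in Yme1l KO and 1.31 TPM in GFP control cells. Kcnj12 (Kir2.2) had 4.78, 7.10 and 7.35 CPM in Yme1l KO libraries, against 2.95, 2.25 and 3.06 CPM in GFP control libraries (1.21 ± 0.23, adjusted p = 0.00048). Kcnj11 had 1.70, 2.58 and 3.51 CPM in Yme1l KO libraries, against 1.93, 1.18 and 0.957 CPM in GFP control libraries. It passed the filter through the Yme1l KO libraries only, the log2 fold change was 0.93 ± 0.35 (adjusted p = 0.0386, 0.136 by DESeq2), and the adjusted p lay between 0.0782 and 0.164 without Yme1l KO replicate 2 or 3 or GFP control replicate 2 or 3.

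All 3 calls among the 5 tested pores opened by calcium or sodium were rises, beside 25.4% of all genes higher. Kcnt1 had 19.0, 14.2 and 27.8 CPM in Yme1l KO libraries, against 4.68, 6.43 and 6.13 CPM in GFP control libraries, the largest fold change of the family here (log2 fold change 1.82 ± 0.27, adjusted p = 0.000561). It was between 1.53 and 2.02 with any 1 library left out. Kcnma1, the BK pore, had 50.1, 52.8 and 65.7 CPM in Yme1l KO libraries, against 28.7, 32.4 and 30.8 CPM in GFP control libraries (0.87 ± 0.10, adjusted p = 1.25e-05). Kcnmb4, its beta subunit, had 15.6, 18.4 and 11.1 CPM in Yme1l KO libraries, against 22.9, 25.6 and 25.0 CPM in GFP control libraries (-0.70 ± 0.14, adjusted p = 0.00113). Pore and beta subunit moved apart, with no overlap in either gene. Kcnn1, a small-conductance calcium-activated pore, rose by 0.89 ± 0.18 on the log2 scale.

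Of the K2P channels Kcnk1 had 15.8, 18.7 and 19.2 CPM in Yme1l KO libraries, against 11.1, 10.2 and 7.28 CPM in GFP control libraries (0.92 ± 0.15, adjusted p = 0.000153). Kcnk5 had 2.97, 3.44 and 2.49 CPM in Yme1l KO libraries, against 4.68, 4.61 and 6.03 CPM in GFP control libraries (-0.78 ± 0.22, adjusted p = 0.00733, 0.0712 on counts scaled from TPM). The 3 called auxiliary subunits, of 5 tested, all fell, beside 26.2% of all genes lower. Kcnab2 had 28.8, 26.8 and 22.3 CPM in Yme1l KO libraries, against 55.6, 48.8 and 57.4 CPM in GFP control libraries (-1.05 ± 0.10, adjusted p = 1.81e-06), and Kcnip3 had 44.8, 47.1 and 39.7 CPM in Yme1l KO libraries, against 60.7, 56.4 and 56.6 CPM in GFP control libraries (-0.40 ± 0.08). Of the silent subunits Kcng1 had 12.001, 14.4 and 10.3 CPM in Yme1l KO libraries, against 17.5, 19.3 and 20.8 CPM in GFP control libraries (-0.65 ± 0.13, adjusted p = 0.000758). Kcnv1 had 15.8, 15.4 and 10.5 CPM in Yme1l KO libraries, against 21.5, 19.3 and 22.3 CPM in GFP control libraries (-0.59 ± 0.14, adjusted p = 0.00224), and its adjusted p was 0.0673 by limma and 0.0855 on counts scaled from TPM. Both fell, and 1 silent subunit rose. Kcng3 had 4.57, 2.69 and 2.38 CPM in Yme1l KO libraries, against 1.43, 1.93 and 1.05 CPM in GFP control libraries (1.14 ± 0.33, adjusted p = 0.00964), with an adjusted p of 0.0791 without Yme1l KO replicate 1 and 0.0602 without GFP control replicate 3, and of 0.0761 on counts scaled from TPM.

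Both comparisons called 19 of the 33 members tested in each, or 57.6% beside 39.7% of the 11477 genes tested in each, and the comparisons share no library. Of these, 7 were higher in both quiescent and Yme1l KO cells (among them Kcna6, Kcnc2, Kcnd1, Kcnd3, Kcnq3 and Kcnt1), and 5 were lower in both (Kcnab2, Kcnip3, Kcnj16, Kcnk5 and Kcnv1). A further 4 were higher in quiescent but lower in Yme1l KO cells (Kcnh2, Kcnj10, Kcnmb4 and Kcnq5), and 3 were lower in quiescent but higher in Yme1l KO cells (Kcnc1, Kcnj11 and Kcnk1). Members higher in both made up 21.2% beside 14.8% of all genes, and those lower in both 15.2% beside 18.4%. Members higher in quiescent but lower in Yme1l KO cells made up 12.1% beside 2.49% of all genes, and the reverse 9.09% beside 3.91%. Among the members called in both, Kcnc2, Kcnq3, Kcnq5, Kcnj11 and Kcnv1 entered the quiescent test through 1 group only. Their direction there was fixed by the filter, as was that of Kcnj11 in Yme1l KO cells. They count in all 4 direction shares, and shares without such genes were not computed. Of the 19, the calls of Kcna6, Kcnc2, Kcnd1, Kcnh2, Kcnj11, Kcnk5, Kcnq3, Kcnq5 and Kcnv1 in Yme1l KO cells were each lost under at least 1 alternative. Kcnc1 and Kcnmb4, the most abundant pore and auxiliary member in proliferating cells, were among those with opposite signs. Kcnt1 had a log2 fold change of 1.89 ± 0.15 in quiescent and 1.82 ± 0.27 in Yme1l KO cells, each against its own control group.

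**Figure D4:**
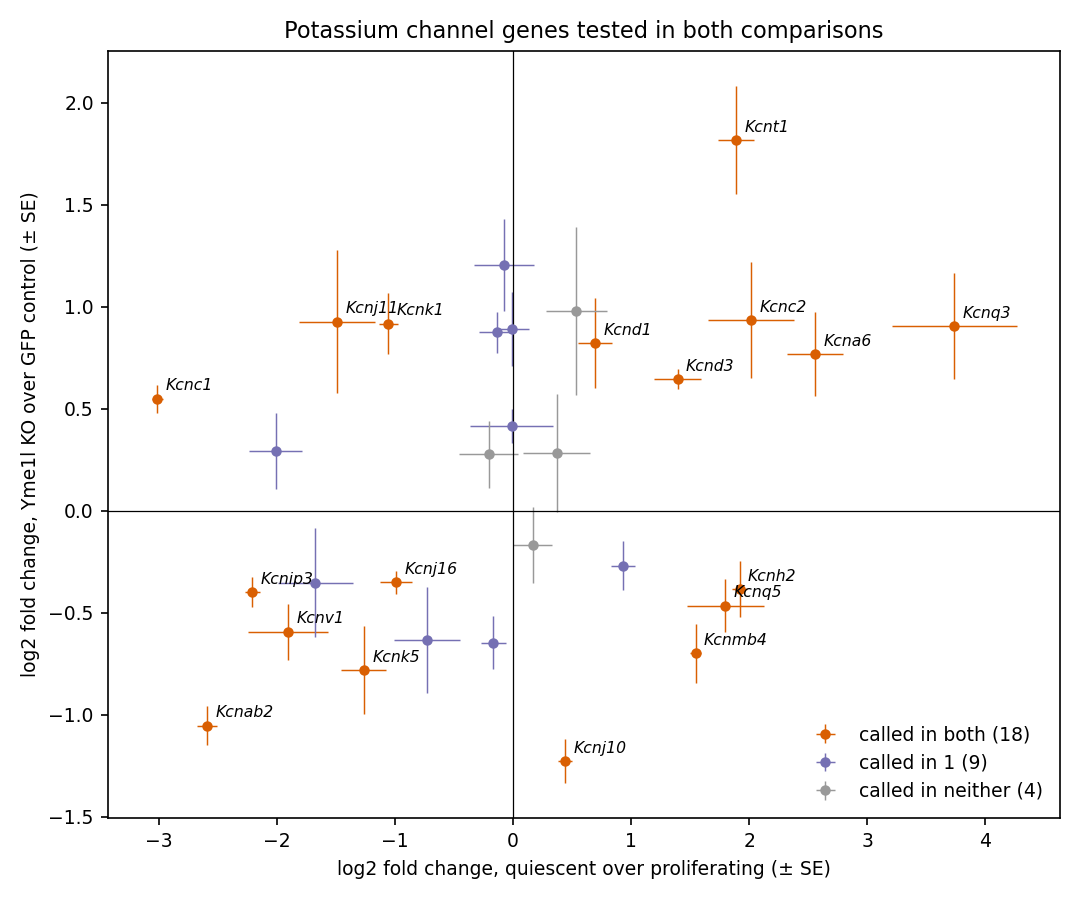
Log2 fold change of 31 of the 33 members tested in both comparisons, quiescent over proliferating on the horizontal axis and Yme1l KO over GFP control on the vertical axis, with SE bars. The 18 drawn members called in both (orange) lie in all 4 quadrants: 6 upper right, 5 lower left, 4 lower right and 3 upper left.

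Genes that work with the channels were read from a list of 36 pump, transporter and accessory genes. Between quiescent and proliferating cells 20 were tested, of which 10 rose and 6 fell. This was 80% called beside 65.4% of all genes tested, with 50% higher and 30% lower beside 29.9% and 35.5%. Slc12a5, the potassium-chloride exporter KCC2, had 48.995 ± 2.39 CPM in quiescent and 13.4 ± 2.002 CPM in proliferating cells (SD, n = 4 each), a log2 fold change of 1.87 ± 0.10. Dpp6, which binds Kv4 pores beside the KChIPs, changed by -1.05 ± 0.10, and Lrrc55, a BK accessory subunit, by 4.58 ± 0.40 from 6 counts in all over the proliferating libraries. The pacemaker channel gene Hcn3 changed by -0.76 ± 0.18.

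In Yme1l KO cells 18 of these genes were tested, of which 7 rose and 5 fell, none by 2-fold. This was 66.7% called beside 51.6% of all genes tested, with 38.9% higher and 27.8% lower beside 25.4% and 26.2%. Slc12a5 rose by 0.75 ± 0.24 on the log2 scale, Hcn2, another pacemaker channel, by 0.65 ± 0.17, and Amigo1, a Kv2 partner, by 0.61 ± 0.10. Fxyd6, a pump modulator, changed by -0.84 ± 0.16, and Ccdc51, a mitochondrial potassium channel subunit, by -0.42 ± 0.17.

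Transcript estimates showed 1 main form for most abundant members. Kcnc1-201 held 98.2% ± 1.03 of the Kcnc1 counts in quiescent, 97.5% ± 0.165 in proliferating, 96.7% ± 0.269 in Yme1l KO and 96.5% ± 0.155 in GFP control cells. Kcnd3-202 held 87.5% ± 3.40 of the Kcnd3 counts in quiescent, 82.97% ± 3.36 in proliferating, 86.8% ± 0.0850 in Yme1l KO and 85.3% ± 0.270 in GFP control cells. Kcnk1-201 held 83.002% ± 2.29 of the Kcnk1 counts in Yme1l KO cells and 98.3% ± 2.94 in GFP control cells, and 88.8% ± 7.47 in quiescent and 82.6% ± 1.98 in proliferating cells. Of the Kcnt1 counts, a transcript annotated as a retained intron held 25.9% ± 4.90 in quiescent and 42.9% ± 6.68 in Yme1l KO cells. Those groups stand in separate tables, so the shares are not compared. No share was taken in proliferating and GFP control cells, where Kcnt1 had under 50 counts in at least 1 library (lowest 31 and 46). In quiescent cells 81.6% ± 31.1 of the Kcna6 counts went to a transcript annotated for nonsense-mediated decay. These shares are estimates over similar transcripts and were not tested.

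Several members lie close together (coordinates of the deposited table, GRCm39). Within 100 kb, 9 pairs were found. Kcnj9 (chromosome 1, 172148068 to 172156885, minus strand) lies 11892 bases from Kcnj10 (172168777 to 172201652, plus strand), and both were higher in quiescent cells. Kcnj16 (chromosome 11, 110858859 to 110918794, plus strand) lies 38196 bases from Kcnj2, which had too few counts to test in the quiescent comparison. Kcna3 and Kcna2 on chromosome 3, 63076 bases apart, had log2 fold changes of -0.75 ± 0.28 and 0.41 ± 0.08 in Yme1l KO cells, and neither call held under every alternative (for Kcna2, adjusted p = 0.0501 by limma, 0.203 with all 14 libraries in 1 fit and 0.0648 on counts scaled from TPM). Some members overlap genes on the other strand: over all libraries Nphp4 held 2990 counts against 6244 for Kcnab2, Kcnmb4os2 held 727 against 12828 for Kcnmb4, and Kcnd3os held 292 against 35505 for Kcnd3. The kit is stranded per the labels, and the deposited design sheets give reverse strandedness.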

How the data were processed

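Quantification by salmon is read from the names of the deposited tables, and the submitters' processing notes name build GRCm39 and DESeq2 1.30.1 in R 4.0.3. The authors deposited estimated counts per gene and transcript, TPM, counts scaled from TPM, and tests with log2 fold changes and adjusted p-values. Samples were grouped by their labels. Estimated counts were rounded and tested in edgeR 4.0.16 (R 4.3.3) with TMM scaling, filterByExpr (10 counts) and a robust quasi-likelihood fit over all genes. Calls are at a Benjamini-Hochberg adjusted p under 0.05. The SE of a log2 fold change is its size over the square root of F. Bounds use 3 counts over a group and cover counting error only. The test was checked on simulated data. Alternatives included DESeq2 1.42.0, limma 3.58.1 on log2(TPM + 1), other scalings and filters, single libraries left out, and, added after seeing the data, removal of the GC trend and TPM-scaled counts. The log2(TPM + 1) scale shrinks the fold changes of genes at low levels. GC content came from GENCODE M21 transcripts by gene ID (99.9% matched), and promoters from RefSeq (GRCm38.p6). Members and lists were chosen with earlier results of these data known. Named were, per comparison, up to 8 called members each way by fold with at least 1 CPM, the 5 highest by TPM per group and up to 6 called in both. Other members are named to complete their role, after their values were seen. Some genes are counted but not reported by name here. Transcript names came from GENCODE M21 by ID.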

Additional observations from a re-analysis of the deposited data

Results flagged for a closer look

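In 4 of 56 groups of 4 libraries, 1 library stood further from the rest than Dixon's limit allows, and chance gives about 1 in 20. In proliferating libraries, replicate 1 had 3.37 CPM of Kcnj12 (nearest 2.82 CPM), and replicate 2 had 22.5 CPM of Kcng1 (nearest 21.5 CPM). Proliferating replicate 5 had 0.230 CPM of Kcna3 (2 counts) and replicate 4 had 0.108 CPM of Kcng3 (1 count), each at 0 in the other 3 libraries. With 3 libraries at 0, any count in the remaining library is flagged. The flags of Kcna3 and Kcng3 were therefore fixed by the rule, and the 4 of 56 cannot be read against 1 in 20. Groups of 3 libraries were not examined this way.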

How the results depend on the processing

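Direction held in every alternative run for the called members. Of 30 calls in quiescent cells, 28 were kept wherever tested, and Kcnd2 and Kcnj11 were not. Of 28 calls in Yme1l KO cells, 14 were kept, and those lost somewhere included Kcna2, Kcna3, Kcna6, Kcnc2, Kcnd1, Kcng3, Kcnh2, Kcnj11, Kcnj15, Kcnk5, Kcnq3, Kcnq5 and Kcnv1. In Yme1l KO cells the members higher numbered 11 by limma on log2(TPM + 1), 9 on TPM-scaled counts and 4 at 2-fold, and those lower 6 on TPM-scaled counts and 2 at 2-fold. Of the pump, transporter and accessory genes tested, 5 were higher and 2 lower in quiescent cells at 2-fold, or 35% beside 20.7% of all genes. In Yme1l KO cells 0 were higher and 0 lower at 2-fold, beside 5.23% of all genes, and 3 were lower on TPM-scaled counts. With 1 library left out, 17 to 18 members were higher and 12 to 14 lower in quiescent cells, and 15 to 18 higher and 9 to 11 lower in Yme1l KO cells. Ranked by CPM in place of TPM, 3 of the 5 highest members were shared in quiescent cells and 3 in Yme1l KO cells. Library size alone moved the median log2 fold change of all genes by -0.138 in the quiescent comparison, and 35.1% of all calls were then higher in quiescent cells, against 45.7% with TMM. The 17 higher and 13 lower members stayed called. A replicate block gave 17 higher and 12 lower members in quiescent cells and 16 higher and 11 lower in Yme1l KO cells. Same-numbered libraries did not deviate together (correlations from -0.345 to 0.00302). This cannot settle whether the numbers mark a pairing, since the labels do not say what they mean. The authors' deposited table called 28 of the 30 and 18 of the 28 members in the same direction. The filter on low counts left 42 of 92 members untested, and low expression and limited depth were not told apart.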
